A study of Mus musculus with 6 samples.

Results

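The genes described here are the CXC chemokine receptors Cxcr1, Cxcr2, Cxcr3, Cxcr4, Cxcr5 and Cxcr6, the related receptor Cx3cr1, and Rufy4 and Tns1, which lie beside Cxcr2 on chromosome 1. These 9 genes, out of 22180 with an array probe set that names a single gene, were taken by their exact symbols. Where a gene has several probe sets the one with the highest mean over the 6 arrays stands for it, and here each of the 9 genes had 1. The list was selected on measured values too, since it was put together with the Tc17 and Tc1 differences known, so every p-value below is that of the fit across all probe sets and none tests the 9 genes as a group. Expression was measured on Affymetrix arrays in mouse CD8+ T cells, from naive cells sorted from spleen. Both groups were activated for 4 days with antibodies to CD3 at 1 µg/ml and CD28 at 3 µg/ml. Tc17 cells had IL-6 and TGF-beta for 3 of those days and Tc1 cells had IL-12, and both groups then had IL-2 for 1 day. Each group had 2 biological samples and a technical array of the sample numbered 2, which was averaged with that sample. The labels give no mouse strain, age or genotype, and do not say whether the biological samples came from separate animals, so the p-values measure the spread between these samples only.

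Chemokine receptors are G protein-coupled receptors that steer leukocytes along gradients of small secreted chemokines. Cxcr1 and Cxcr2 bind the chemokines with an ELR motif and are best known for calling neutrophils into inflamed tissue. Cxcr3 is the receptor of the interferon-inducible chemokines Cxcl9, Cxcl10 and Cxcl11 and is a classical receptor of type 1 effector T cells, Cxcr4 holds cells in niches rich in Cxcl12, and Cxcr5 leads lymphocytes into B cell follicles towards Cxcl13. Cxcr6 binds Cxcl16 and is common on T cells in tissues, and Cx3cr1 binds the membrane-anchored chemokine Cx3cl1 and marks monocytes and cytotoxic effector T cells. Tns1 encodes tensin 1, which links integrins to the actin skeleton at focal adhesions, and Rufy4 encodes a protein with RUN and FYVE domains that acts in vesicle traffic and autophagy.

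The 4 genes at the Cxcr2 locus were all lower in Tc17 cells, and they stand side by side in the order Tns1, Rufy4, Cxcr2, Cxcr1. The 250 bases before the start site of each are shown because these genes moved together. They are RefSeq sequence of GRCm38.p6, written in the direction of each gene, at chr1:74153744-74153993 (plus strand), chr1:74194632-74194881 (minus), chr1:74125291-74125540 (plus) and chr1:74124549-74124798 (minus). Of the motifs searched only the core motif of T-box factors is marked, with capitals for a match to AGGTGT or its complement ACACCT.
Cxcr2: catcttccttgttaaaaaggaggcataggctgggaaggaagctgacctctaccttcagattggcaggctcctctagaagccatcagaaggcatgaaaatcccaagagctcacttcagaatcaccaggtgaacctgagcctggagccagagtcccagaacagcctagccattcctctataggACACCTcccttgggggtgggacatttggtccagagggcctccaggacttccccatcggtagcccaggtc
Cxcr1: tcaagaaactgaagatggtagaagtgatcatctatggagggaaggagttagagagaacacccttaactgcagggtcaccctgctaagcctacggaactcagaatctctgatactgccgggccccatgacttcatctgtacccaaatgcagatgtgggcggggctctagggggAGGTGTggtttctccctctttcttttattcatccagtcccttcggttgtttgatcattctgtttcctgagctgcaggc
Rufy4: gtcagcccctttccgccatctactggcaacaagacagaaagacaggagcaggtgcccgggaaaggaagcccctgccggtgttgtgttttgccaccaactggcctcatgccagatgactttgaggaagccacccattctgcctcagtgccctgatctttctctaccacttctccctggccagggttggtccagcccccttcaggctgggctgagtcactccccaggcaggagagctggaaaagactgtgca
Tns1: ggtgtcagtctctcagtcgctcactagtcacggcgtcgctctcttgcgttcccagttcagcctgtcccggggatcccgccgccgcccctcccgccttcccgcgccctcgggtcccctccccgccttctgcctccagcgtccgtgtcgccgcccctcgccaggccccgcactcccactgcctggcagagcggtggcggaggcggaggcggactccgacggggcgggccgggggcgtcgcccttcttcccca
The Cxcr1 and Cxcr2 sequences hold 1 such match each, beginning 78 and 69 bases before the start site, and those of Rufy4 and Tns1 hold none. In Cxcr1 the match overlaps one to TGTGGT, the RUNX motif. The T-box core motif is in 13.7% of 32851 promoter windows of 300 bases (250 before and 50 after a start site), counting both strands. The Cxcr2 window also held 2 matches to the ROR element AGGTCA, which 16.3% of windows hold. The Rufy4 window held 1 to the AP-1 motif TGANTCA, which 7.81% hold. The sequence CACCC, in 57.5% of windows, had 2 matches in the Cxcr1 window and 1 each in those of Cxcr2 and Rufy4. The SMAD motif GTCTG, in 49.6% of windows, had 1 match in the Tns1 window. The STAT motif TTCNNNGAA was found in none of the 8 windows at hand for the 9 genes and in 8.3% of all windows. The Tns1 window differs in composition, with 75.7% G and C and 37 CG steps, against 57.7% and 3 in Rufy4, 54.0% and 2 in Cxcr2 and 52.7% and 7 in Cxcr1. These matches describe letters and are not shown to be bound sites.

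Cxcr2, the neutrophil-type receptor, had a log2 intensity of 8.04 in sample 1 of Tc17 and of 6.98 (biological array) and 7.42 (technical array) in sample 2. In Tc1 it had 10.34 in sample 1 and 10.44 and 10.30 in sample 2. The Tc1 arrays lay close together and the Tc17 arrays were spread, with 0.44 between the technical and the biological array of the same Tc17 sample. The group means were 7.62 ± 0.59 in Tc17 and 10.36 ± 0.02 in Tc1 (log2, SD, n = 2), and the intensity was 6.66-fold lower in Tc17. The log2 difference of −2.74 ± 0.28 (SE, limma adjusted p = 0.0382) was the 24th lowest of the 22180 genes.

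Cxcr1, its paralog, measured 8.74, 8.32 and 8.32 on the Tc17 arrays in the same order, against 10.81, 11.03 and 10.79 on the Tc1 arrays. The groups were set apart by 2.05 between their nearest arrays. Cxcr1 was 5.04-fold lower in Tc17, a log2 difference of −2.33 with an SE of 0.16 (limma adjusted p = 0.0151), and the 95% intervals of the Cxcr1 and Cxcr2 differences overlap. The files give no probe sequences, so hybridization of one paralog's RNA to the other's probes was not tested.

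Rufy4 measured 7.23, 6.99 and 6.96 on the Tc17 arrays, against 8.76, 9.08 and 8.85 on the Tc1 arrays, and was 3.40-fold lower in Tc17 (difference on the log2 scale −1.76 with an SE of 0.13, limma adjusted p = 0.0174). Tns1 measured 8.66, 8.22 and 8.29 on the Tc17 arrays, against 9.99, 10.08 and 9.88 on the Tc1 arrays. It was 2.88-fold lower in Tc17, with a difference on the log2 scale of −1.53 and an SE of 0.15 (limma adjusted p = 0.0344). In neither gene did the arrays of the groups overlap. In all 4 genes of the locus Tc17 sample 1 lay above Tc17 sample 2. Taking samples of the same number, the difference ran in the order Cxcr2, Cxcr1, Rufy4, Tns1 for both numbers, with −2.30, −2.07, −1.54 and −1.33 for number 1 and −3.17, −2.59, −1.99 and −1.72 for number 2. Sample numbers are not stated to pair the groups, so the repeated order is a description. The full RefSeq gene spans of Rufy4 and Tns1, over all their transcripts, overlap at their starts, although the start sites behind the sequences shown above are apart. RNA of the shared stretch could not be assigned to one of them from these files.

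Over all 22180 genes 0.591% were lower in Tc17 and 0.992% higher at an adjusted p of 0.05. Among the 9 genes 4 were lower and 1, Cxcr5, was higher, but the genes were picked with earlier results known and this share is a description. In 8 of the 9 genes the arrays of the groups did not overlap, as in 23.7% of all probe sets. Leaving out 1 biological sample in turn kept the 4 lower differences below 0. That outcome was fixed, since no arrays of the groups overlapped in these 4 genes. The median of the 4 differences was −2.12 without Tc1 sample 1 and −1.97 without Tc1 sample 2. It was −2.22 without Tc17 sample 1 and −1.88 without Tc17 sample 2. Each of these fits leaves 1 sample in a group. Calls at the locus were lost in each of them, as they were over the whole table. Leaving out the technical arrays took Cxcr2 to an adjusted p of 0.0538 in limma's test, with a difference of −2.88.

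**Figure D1:**
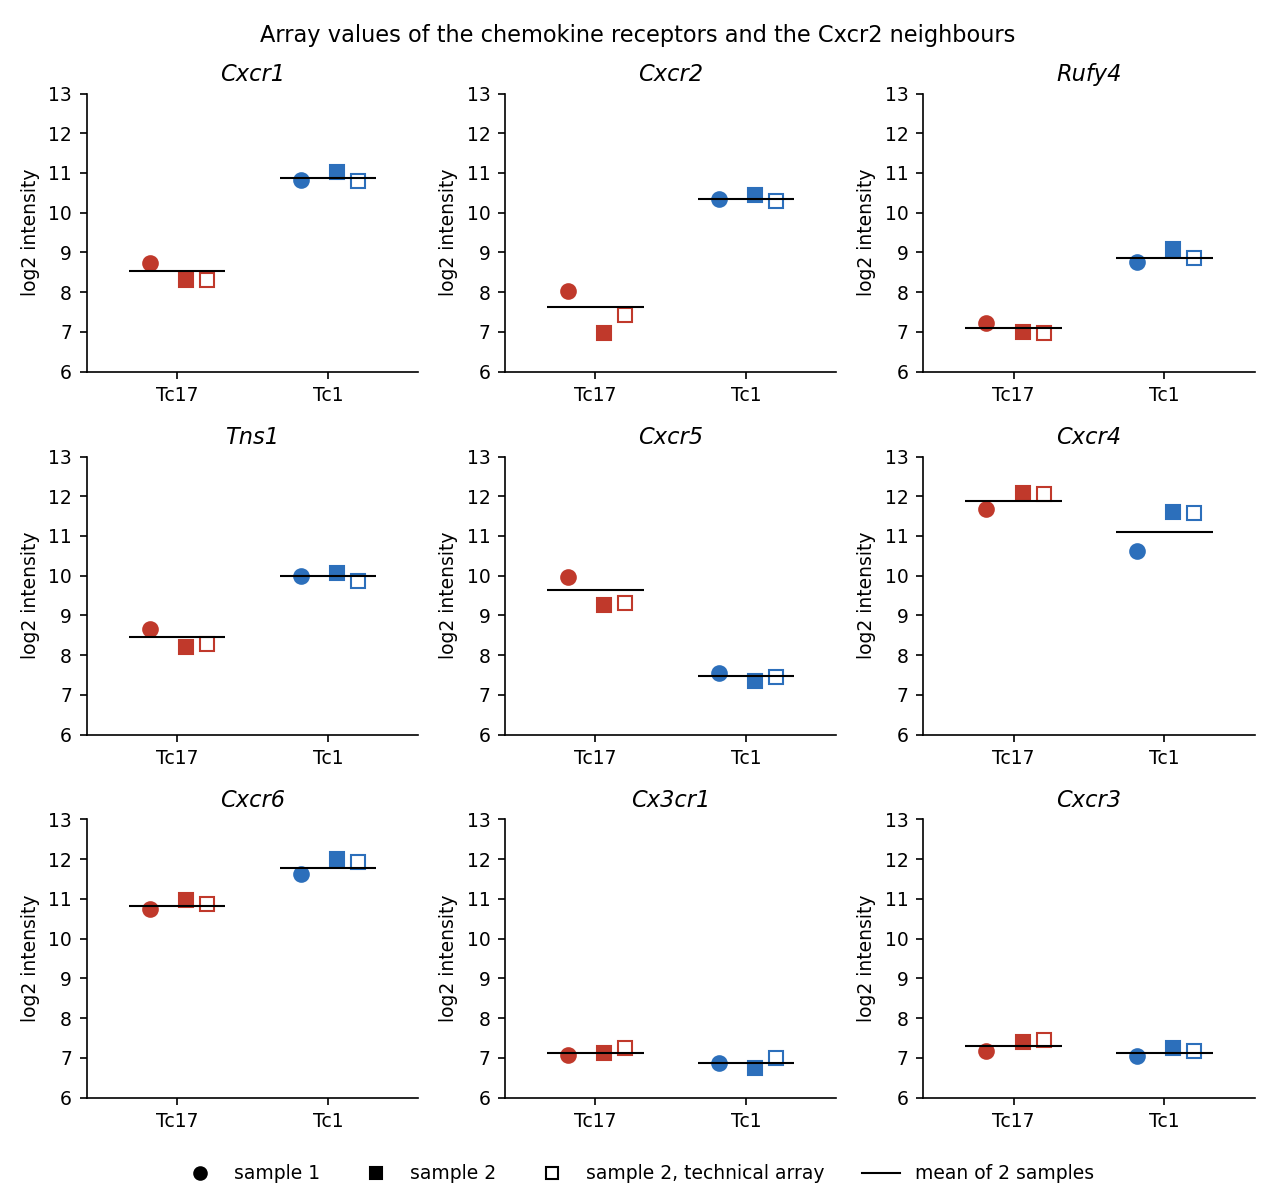
Log2 intensity of each of the 9 genes on the 6 arrays, with Tc17 at left and Tc1 at right; circles are sample 1, filled squares sample 2, open squares its technical array, and the line is the mean of the 2 samples. Cxcr1, Cxcr2, Rufy4 and Tns1 were lower on every Tc17 array, Cxcr5 was higher on every Tc17 array, and the Cxcr3 arrays overlap.

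The genes on both sides of the 4-gene run had smaller differences, and none of their 95% intervals (lowest bound −0.97) reached those of the 4 genes (highest bound −1.13). The run was picked with its differences known, so this comparison is a description and does not test where the run ends. None of the 10 measured genes on either side passed the test, and the 20 differences had a median of −0.03 and ran from −0.51 to 0.48 (smallest limma adjusted p = 0.13). The next measured gene before Tns1, the non-coding 6030407O03Rik, had 5.30 in Tc17 and 5.41 in Tc1, and the next after Cxcr1, the microRNA gene Mir1928, had 3.77 and 3.81. Both lay below every array median (6.04 to 6.09), where signal above background is not shown. Flanking genes far above the array medians, picked after their values were seen, were Arpc2, a subunit of the actin-branching Arp2/3 complex, with 12.86 in Tc17 and 12.99 in Tc1, and Aamp with 10.47 and 10.42. The 2 ends of the range, likewise named after the values were seen, were Rpl37a, a ribosomal protein gene, at −0.51 and Slc11a1, a metal transporter gene of phagocytes, at 0.48. Of the 20 flanking genes 10 had a mean at or above the lowest array median.

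Along all chromosomes, 21981 measured genes could be ordered. In 29 places 2 or more consecutive genes were called in the same direction, in 5 places 3 or more, and in 2 places 4. One of these 2 was Tns1 to Cxcr1 and the other was Rexo5, Dcun1d3, Lyrm1 and Tmem159 on chromosome 7, also lower in Tc17.

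**Figure D2:**
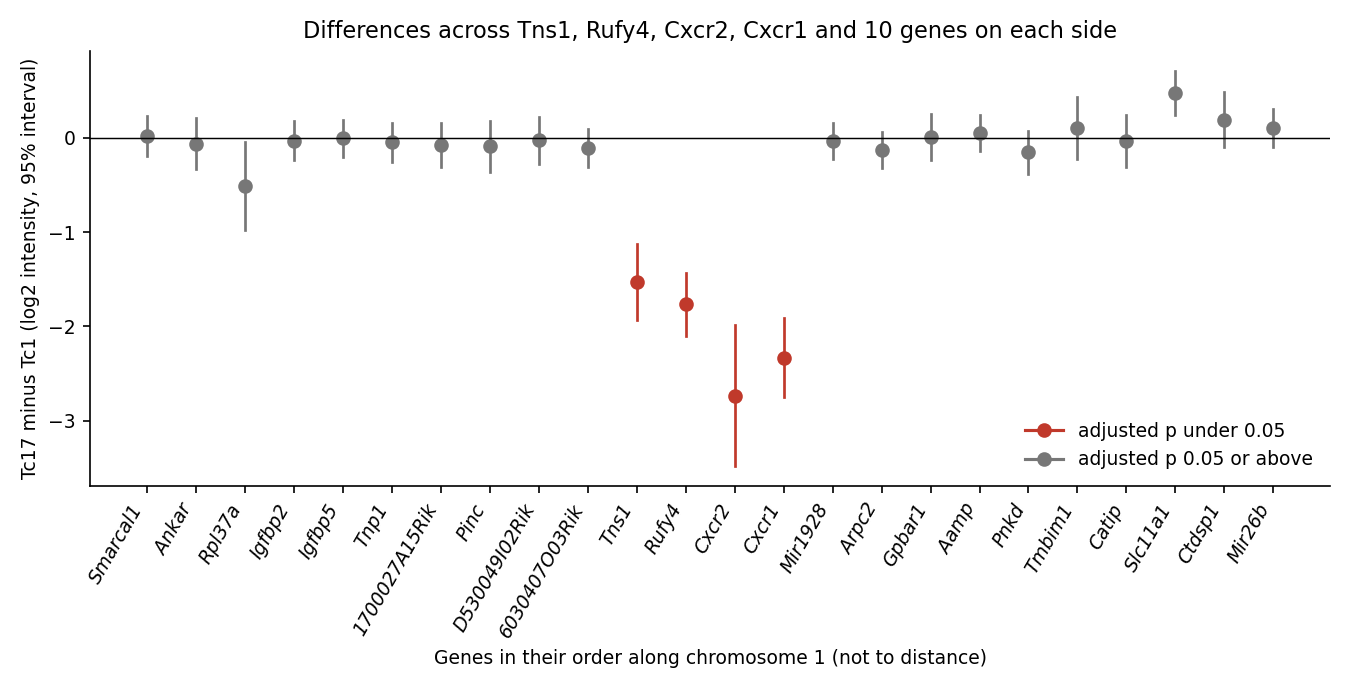
Tc17 minus Tc1 difference in log2 intensity with its 95% interval for Tns1, Rufy4, Cxcr2, Cxcr1 and the 10 measured genes on each side, in gene order and not to distance. The 4 called genes lie between −2.74 and −1.53, and the 20 flanking genes lie between −0.51 and 0.48.

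Cxcr5, the follicle-homing receptor, moved the other way. It measured 9.98, 9.26 and 9.31 on the Tc17 arrays, against 7.56, 7.34 and 7.44 on the Tc1 arrays. The lowest Tc17 array was 1.70 above the highest Tc1 array, and within Tc17 sample 1 exceeded both arrays of sample 2. Cxcr5 averaged 9.63 ± 0.49 in Tc17 and 7.47 ± 0.12 in Tc1 (log2, SD, n = 2), a 4.46-fold higher intensity (log2 difference 2.16 ± 0.24 SE, limma adjusted p = 0.0479). The call ended after quantile normalization (limma adjusted p = 0.0502). It also ended in some of the 4 fits that leave out a sample, where calls were lost over the whole table too. Over those 4 fits the Cxcr5 difference ran from 1.81 to 2.50. No measured gene among the 3 on each side of Cxcr5 was called, including Bcl9l, whose RefSeq span overlaps that of Cxcr5 and whose difference was 0.09. Cxcr5 has no entry in the promoter table.

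Cxcr6, the receptor of Cxcl16, measured 10.74, 10.97 and 10.87 on the Tc17 arrays, against 11.62, 12.00 and 11.93 on the Tc1 arrays. The arrays did not overlap, yet the log2 difference of −0.96 ± 0.15 (SE) did not pass (limma adjusted p = 0.0853), and its 95% interval ran from −1.35 to −0.58. It passed with the replicate number as a block (limma adjusted p = 0.0115). Cxcr6 lies inside the RefSeq span of Fyco1, whose difference of 0.46 missed the threshold (limma adjusted p = 0.457).

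Cxcr4 measured 11.68, 12.09 and 12.06 on the Tc17 arrays, against 10.62, 11.60 and 11.59 on the Tc1 arrays. Tc1 sample 1 lay below all other arrays, and the SD was 0.28 in Tc17 and 0.69 in Tc1 (n = 2 each). The difference was 0.77 with a 95% interval from −0.16 to 1.70 (limma adjusted p = 0.464), and it was 0.28 without Tc1 sample 1 and 1.26 without Tc1 sample 2.

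Cx3cr1 and Cxcr3 had smaller differences. Cx3cr1 measured 7.07, 7.13 and 7.26 on the Tc17 arrays, against 6.86, 6.75 and 6.99 on the Tc1 arrays, a difference of 0.27 with an unadjusted interval from 0.05 to 0.48 (limma adjusted p = 0.288). Cxcr3 measured 7.17, 7.39 and 7.45 on the Tc17 arrays, against 7.05, 7.24 and 7.18 on the Tc1 arrays, and the groups overlapped. Its difference was 0.16 with an interval from −0.15 to 0.48 (limma adjusted p = 0.658). Tbx21, which encodes T-bet, a factor known to act on Cxcr3, had 8.60 ± 0.07 in Tc17 and 11.39 ± 0.04 in Tc1 (log2, SD, n = 2). The next gene to Cx3cr1 on chromosome 9 is Ccr8, a skin-homing receptor, which had 8.74 in Tc17 and 6.58 in Tc1 and was called (limma adjusted p = 0.0215).

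**Figure D3:**
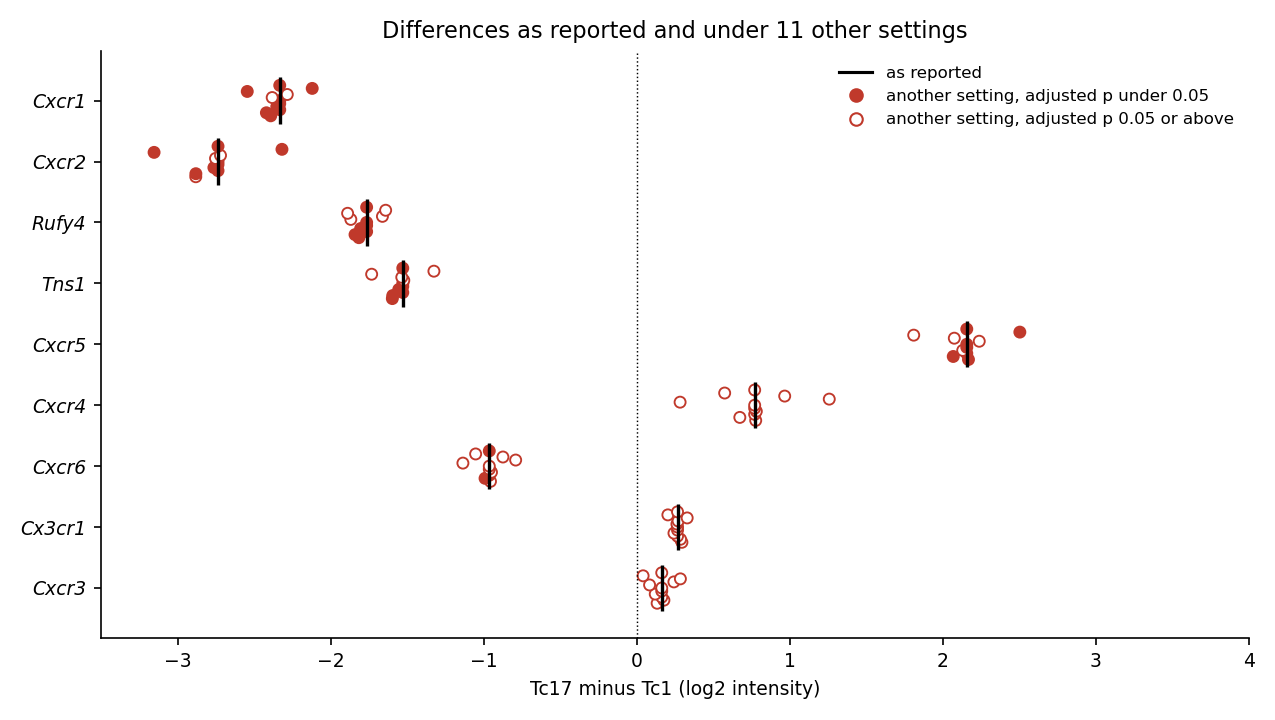
Tc17 minus Tc1 difference in log2 intensity of each of the 9 genes, as reported (black line) and under 11 other settings (points; filled where the limma adjusted p was under 0.05). All settings keep the sign of each gene, which several of them cannot change, and Cxcr4 ranges from 0.28 to 1.26.

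Among 16 other measured chemokine receptors, mostly of the CC class, Ccr4, Ccr8 and Ccr7 passed the test as higher and none passed as lower, and 7 of the 16 differences were below 0. The median difference was 0.03, against −0.01 over all genes. The lowest was that of Ccr2, picked after its value was seen, at −1.46 with a 95% interval from −2.57 to −0.34 (limma adjusted p = 0.265). Ccr6, picked in the same way, was at 2.07 and just missed the threshold (limma adjusted p = 0.0505). It passed under several of the other settings. Leaving out a sample cost calls among the 16, as it did over the whole table. Ccr4 was 5.77-fold and Ccr7, the lymph node homing receptor, 3.04-fold higher. Ccr7 passed narrowly (limma adjusted p = 0.0473). Its call ended after quantile normalization (limma adjusted p = 0.0502) and without the technical arrays (limma adjusted p = 0.0532). Of the 14 measured ligands of the CXC receptors and Cx3cr1 none passed, their median difference was −0.01, and 8 of them lay below the lowest array median in both groups. Of 2 ligands picked after their values were seen, Cxcl3, a Cxcr2 ligand, had the largest difference, at 1.05 (limma adjusted p = 0.462), with 5.72 and 4.28 in the Tc17 samples and 3.91 and 3.99 in the Tc1 samples. The other, the Cxcr6 ligand Cxcl16, had 7.75 ± 0.21 in Tc17 and 7.05 ± 0.09 in Tc1 (log2, SD, n = 2; limma adjusted p = 0.129).

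Of 20 measured genes of receptor signalling (G protein subunits, receptor kinases, arrestins, and the Dock2, Rac and integrin activation steps) none passed, and their differences ran from −0.29 to 0.31. Among 17 transcription factors linked to these receptors Maf was higher and Tbx21 lower. In the tensin family Tns1 was the 1 of 4 called, and in the RUFY family Rufy4 was the 1 of 4; the other 6 had differences between −0.09 and 0.48. These lists were drawn up with earlier results known.

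Markers of other cells that carry these receptors were set beside them. All 7 measured T cell and CD8 markers were bright in both groups, with means from 10.93 to 13.01. Of 10 neutrophil markers, which bear on Cxcr1 and Cxcr2, 9 lay below the lowest array median in both groups. S100a8, S100a9 and Csf3r, named after their values were seen, were among the 9. The exception was Ly6g, with 9.60 in Tc17 and 7.07 in Tc1 (limma adjusted p = 0.0114). Summed over the 10 markers the log2 values were 55.5 and 55.9 in the Tc17 samples, against 53.0 and 53.3 in the Tc1 samples. Ly6g carried that gap, since the sums of the other 9 were 46.1 and 46.1 in the Tc17 samples, against 46.2 and 45.9 in the Tc1 samples. Of 7 macrophage and monocyte markers 3 lay below that median in both groups and Lyz2 was called higher, with 8.97 in Tc17 and 5.44 in Tc1. Their sums were 47.0 and 48.1 in the Tc17 samples, against 42.7 and 43.7 in the Tc1 samples. Without Lyz2 the other 6 summed to 38.9 and 38.3 in the Tc17 samples, against 37.2 and 38.2 in the Tc1 samples, with differences per gene from −0.14 to 0.38. Counting Lyz2, 6 of the 7 differences were above 0, the direction of Cx3cr1, and 1 was below, with a median of 0.25. The part of such cells in the Cx3cr1 values was not tested. Of 7 B cell markers, which bear on Cxcr5, none was called and 4 lay below the lowest array median in both groups. Their sums were 43.9 and 44.0 in the Tc17 samples, against 43.6 and 43.6 in the Tc1 samples. Cd79b, picked after its value was seen, had the largest difference, in the direction of Cxcr5. It had 10.32 in Tc17 and 9.80 in Tc1 (limma adjusted p = 0.162). Of the 7 differences 4 were above 0 and 3 below. None of 4 NK cell, 3 CD4 T cell and 5 dendritic cell markers measured was called. The NK cell markers summed to 21.4 and 23.7 in the Tc17 samples, against 24.9 and 25.2 in the Tc1 samples, a gap in the direction of Cxcr1 and Cxcr2. It came with Gzma, a granzyme gene that cytotoxic T cells also express, picked after its value was seen (log2 difference −2.48, limma adjusted p = 0.308). The other 3, among them Ncr1, lay below the lowest array median in both groups. They summed to 14.2 and 14.1 in the Tc17 samples, against 14.2 and 14.2 in the Tc1 samples. The CD4 T cell sums ran from 19.5 to 19.7 in Tc17 and from 20.0 to 20.1 in Tc1, and the dendritic cell sums from 32.8 to 33.9 in Tc17 and from 32.9 to 33.3 in Tc1. The part of neutrophils and NK cells in the Cxcr1 and Cxcr2 values was not tested, nor was that of B cells in the Cxcr5 values. In bulk RNA fewer cells with a transcript and less transcript per cell cannot be told apart.

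**Figure D4:**
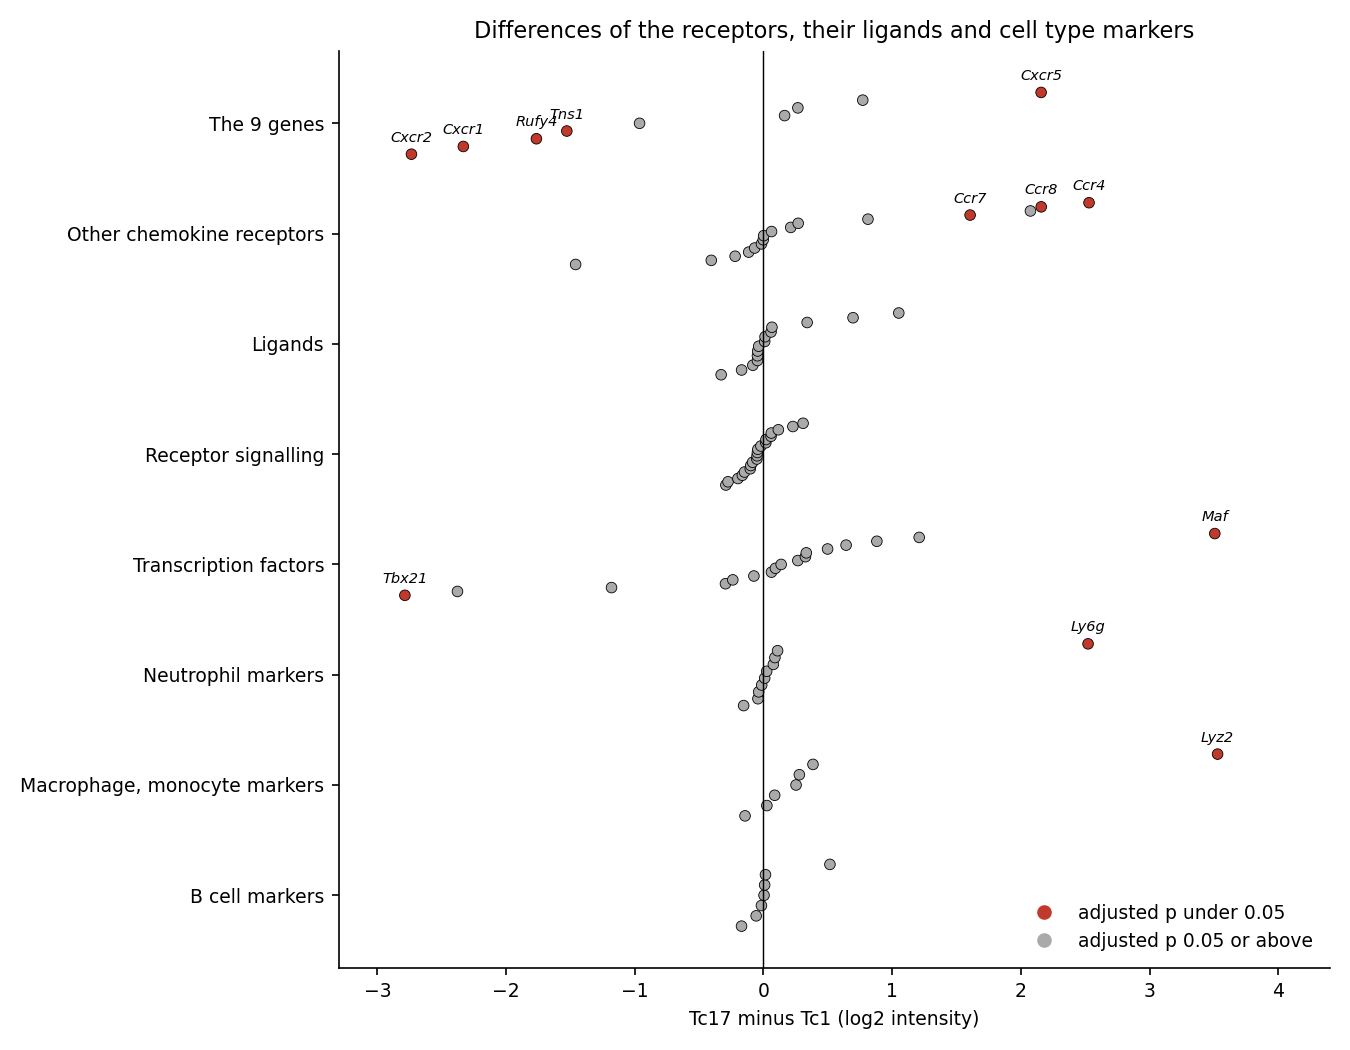
Tc17 minus Tc1 difference in log2 intensity of the 9 genes, of related gene lists and of markers of other cell types, 1 point per gene, with called genes in red and named. No ligand or signalling gene passed the test, and Ly6g and Lyz2 are the called markers.

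The likeness of patterns was measured as the root mean square difference between array values over the 6 arrays, each gene centred on its own mean, among 12296 other genes with a mean at or above the lowest array median. Nearest to Cxcr2 were Sulf2, which trims heparan sulfate (0.21), the chemokine gene Ccl5 (0.24) and Cxcr1 (0.30). Nearest to Cxcr1 were the metalloprotease gene Adam8 (0.11), the mucin-type glycosyltransferase gene Galnt3 (0.16) and the perforin gene Prf1 (0.17), with Rufy4 in place 19 and Cxcr2 in place 20. Nearest to Cxcr5 were the chemokine receptor gene Ccr6 (0.10), the membrane repair gene Myof (0.12) and Tnfrsf25, a death-domain receptor gene (0.15). With 4 biological samples in 2 groups such likeness mainly reflects the size of the difference between the groups.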

How the data were processed

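The deposited values are log2 intensities of 41345 probe sets on 6 arrays, which the authors produced using RMA and Partek according to the submitters' processing notes (no versions named); RMA corrects background, normalizes by quantiles and summarizes probes. Genome build and annotation release are not given in the sources used here. No array gives a detection call or depth, and the number of arrays limits the precision.

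Technical arrays were averaged with the sample of the same number, leaving 2 samples per group. Tc17 minus Tc1 was fitted with limma 3.58.1 in R 4.3.3 (lmFit, eBayes; 2 residual and 2.63 prior degrees of freedom), p-values adjusted by Benjamini-Hochberg across the whole table, called at 0.05, and 95% intervals are limma's. Names came from the platform annotation (1 symbol for 23521 probe sets), and gene order from RefSeq GRCm38.p6. Motifs were searched on both strands.

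The members, lists and motifs were chosen with earlier results of these data known. Named genes were the 9 members, up to 3 called genes per direction of each list, the direct neighbours, and the 3 genes nearest to each of the 3 members with the largest differences; all other names (overlapping genes, the other run of called genes, single markers and those so marked) were picked after the values were seen. Alternatives covered how the technical array is read, a replicate block, quantile normalization, a filter on level, trend and robust moderation, averaging each gene's probe sets, and leaving out each sample.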

Additional observations from a re-analysis of the deposited data

How the results depend on the processing

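Of the 9 genes 5 were called, and every one of the 9 kept its sign under all 11 alternatives. Much of that was fixed in advance. The replicate block, level filter, trend and robust moderation and averaging of probe sets leave the difference of each of these genes unchanged. Leaving out or regrouping arrays cannot turn a sign where the arrays of the groups do not overlap, as in 8 of the 9. Leaving out 1 biological sample in turn called 0 to 3 of the 9, 0 to 1 ligands, 0 to 2 of the other receptors (3 as reported) and 0 of the tensin and RUFY families; the lone sample of a group is then assumed to vary like the other group. With 6 arrays taken as separate samples 1 flanking gene of the locus, 2 signalling genes, 6 other receptors, 7 transcription factors and 2 RUFY genes were called, and 2318 probe sets in all against 418 as reported. The replicate number as a block called 6 other receptors, 8 transcription factors and 1535 probe sets, with Cxcr6 at a limma adjusted p of 0.0115. The labels do not say that the numbers pair the samples, and with 2 numbers the correlation of the deviations (0.31 over probe sets) does not settle it. Keeping probe sets at or above the lowest array median called 5 transcription factors and 647 probe sets. Averaging each gene's probe sets and testing over genes called 5 other receptors and 7 transcription factors, and Cxcr6 passed (limma adjusted p = 0.0298). Cxcr6 has 1 probe set, so its values were unchanged there and only the fit and adjustment over genes differed.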
